A study of Homo sapiens with 38 samples.

Results

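The genes described here are 8 genes of cell adhesion and of the epithelial to mesenchymal transition: CDH1, CDH2, CDH3, EPCAM, SNAI1, SNAI2, ZEB1 and ZEB2. They were taken from the count table by symbol, whatever their values. All 8 were among its 57133 genes, and 7 of them were among the 16674 genes with enough counts to be tested, ZEB1 being too low. RNA was sequenced as 3′ tags, reads from the end of each transcript next to its poly(A) tail, in 38 libraries of Shef6, a human embryonic stem cell line. The study followed gene expression over 8 days in several media as these cells left the naive state, the earliest human pluripotent state held in culture, for the later states that can enter embryonic lineages.

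All cells came from naive Shef6 adapted to a serum coating. PXGL, a medium of inhibitors and the cytokine LIF, held the naive cells, either on serum coating (2 libraries) or on Geltrex, a basement membrane extract (2 libraries in each of 2 experiments). In experiment 1, cells were plated on Geltrex into N2B27, a basal medium with no added growth factor, and into E8, a defined medium for primed cells, both sampled on days 2, 3, 4, 6 and 8. Another medium for primed cells, mTeSR, was sampled on days 4, 6 and 8. In experiment 2, day 4 was sampled in N2B27, in N2B27 with XAV, an inhibitor of Wnt signalling, and in FAX, which adds FGF2, XAV and Activin A to N2B27. Each of the 19 groups had 2 libraries. The 6 naive libraries were pooled as the reference for later days, and so were the 4 libraries of N2B27 at day 4. The 2 naive libraries of experiment 2 are labelled day 0 by title and time point, while their library name carries day 4, and they were used as day 0. All libraries are of 1 line, and no label says that the 2 of a group came from separate experiments. P-values between groups thus measure the spread between parallel libraries. Those against naive cells also take in differences between experiments and coatings among the pooled libraries.

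The libraries held 3038046 to 5612354 counts, with a median of 4427277. Values are CPM, the counts scaled to a common library total after TMM normalisation, and 3 counts, taken as the floor of detection, came to 0.520 to 1.06 CPM. Log expression correlated between the 2 libraries of a group at r = 0.965 to 0.986. All 10 naive markers had a lower mean in N2B27 at day 8 than in naive cells, and their summed level went from between 1516 and 2073 CPM to between 703 and 758 CPM. The falls were unequal: DPPA3 went from 263 to 251 CPM and SPIC from 45.3 to 0 CPM. None of the 3 general pluripotency genes POU5F1, NANOG and SOX2 was called in either direction in that comparison, by edgeR's quasi-likelihood test. A gene is called here when its Benjamini-Hochberg adjusted p, over all genes tested, was below 0.05 and its log2 fold change was beyond 1 in size. In bulk RNA, fewer cells with a transcript and less of it per cell cannot be told apart.

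Classical cadherins join neighbouring cells through calcium-dependent binding of the same cadherin on both sides and hold the actin skeleton through catenins. Epithelia are built on E-cadherin (CDH1). In the epithelial to mesenchymal transition, as at gastrulation or when neural crest cells leave the neural tube, N-cadherin (CDH2) takes its place, under zinc finger repressors of the Snail (SNAI1, SNAI2) and ZEB (ZEB1, ZEB2) families, which bind E-box sequences in the CDH1 promoter. Human pluripotent cells are epithelial, and N-cadherin belongs to the genes that the field uses to mark the primed state.

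In GENCODE v44 on GRCh38, CDH3 (chr16:68636189-68727468) and CDH1 (chr16:68737292-68835537) are neighbours on the plus strand of chromosome 16, with 9823 bases between them. CDH2 lies at chr18:27932879-28177946 on the minus strand, EPCAM at chr2:47345158-47387601 on the plus strand and SNAI1 at chr20:49982980-49988886 on the plus strand. ZEB1 lies at chr10:31318495-31529814 on the plus strand and ZEB2 at chr2:144364364-144521057 on the minus strand. With 3′ tags a count does not grow with transcript length, and apart from the tag count ratio of CDH2 to CDH1, levels are compared here within a gene only.

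The RefSeq table of start sites (GRCh38.p14) held starts for CDH2 (2), ZEB1 (7) and ZEB2 (1). The 250 bases before a start of CDH2 and before the start of ZEB2 are shown because both genes rose in these libraries and because Snail and ZEB proteins read the E-box CACCTG, which is CAGGTG on the other strand. Capitals mark any E-box of the general form CANNTG.
CDH2, chr18:28177131-28177380, minus strand: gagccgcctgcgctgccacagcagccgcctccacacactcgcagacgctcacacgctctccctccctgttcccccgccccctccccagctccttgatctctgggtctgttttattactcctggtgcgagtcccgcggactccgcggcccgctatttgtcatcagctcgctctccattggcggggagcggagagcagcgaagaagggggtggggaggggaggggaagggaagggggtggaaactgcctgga
ZEB2, chr2:144520120-144520369, minus strand: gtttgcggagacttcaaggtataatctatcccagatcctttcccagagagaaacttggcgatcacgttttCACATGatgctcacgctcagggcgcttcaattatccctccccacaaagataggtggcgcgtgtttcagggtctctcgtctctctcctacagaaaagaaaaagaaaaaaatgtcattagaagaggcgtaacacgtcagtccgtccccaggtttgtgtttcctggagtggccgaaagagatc
The CDH2 window, with 66% G or C, held no CANNTG on either strand. The ZEB2 window, with 48% G or C, held 1, the CACATG that begins 180 bases before the start. Neither held CACCTG or CAGGTG, which stood in 2 of the 7 ZEB1 windows and in neither of the 2 of CDH2. Of 35116 windows of this length before the starts in the table, 17.5% held CACCTG or CAGGTG and 61.8% held CANNTG. These are matches of letters and were not tested as binding sites.

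CDH1, E-cadherin, fell when cells left PXGL and then stayed expressed in every medium up to day 8. The naive libraries had 604 and 690 CPM on serum coating, 610 and 617 CPM on Geltrex in experiment 1 and 537 and 568 CPM on Geltrex in experiment 2, a mean of 604 ± 51.7 CPM (SD, n = 6). The other 32 libraries ranged from 243 to 493 CPM with a median of 339 CPM, and none reached the lowest naive library. The loss was thus present at the first sampled day and was of moderate size.

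In N2B27, CDH1 stood at 408 and 378 CPM on day 2, 277 and 377 CPM on day 3, 368 and 403 CPM on day 4 of experiment 1, 408 and 310 CPM on day 6 and 380 and 400 CPM on day 8. Log2 fold changes against naive were between -0.89 at day 3 and -0.62 at day 2 (SE 0.12 for both), and the level at day 8 was 1.55-fold lower with an adjusted p of 4.62e-05. The change passed the p threshold on each of the 5 days in N2B27 but on none of them the fold threshold. No step from one sampled day to the next passed the p threshold in N2B27, and from day 3 on each sampled day overlapped with the next.

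E8 gave the lowest CDH1 levels. There it stood at 445 and 493 CPM on day 2, the highest values outside naive cells, and at 264 and 336 CPM on day 3, 314 and 348 CPM on day 4, 315 and 299 CPM on day 6 and 243 and 297 CPM on day 8. The step from day 2 to day 3 was -0.64 in log2 (SE 0.13, adjusted p = 0.000847), the only step of CDH1 in any medium past the p threshold. At day 8 the level was 2.24-fold lower than in naive cells (log2 fold change -1.16, SE 0.12, adjusted p = 1.37e-09), which was called, as was day 3 at -1.01. The call at day 3 was lost without the second naive library on serum coating (-0.97) or without the first E8 library of that day (-0.85). Day 6, at -0.98, was called without its own first library (-1.02), without the first naive library of experiment 2 (-1.01) or against the naive libraries of experiment 1 alone (-1.04), and N2B27 at day 3 without its second library (-1.13).

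mTeSR libraries had 339 and 318 CPM of CDH1 on day 4, 307 and 362 CPM on day 6 and 403 and 434 CPM on day 8. Their log2 fold changes against naive were -0.88, -0.85 and -0.53 (SE 0.12 each), all past the p threshold and none called. The 2 libraries of mTeSR at day 8 were both above the 2 of E8 and the 2 of N2B27 at that day.

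CDH2, N-cadherin, was close to the floor in naive cells and lay within their range at day 2 in N2B27 and E8. It rose after that up to day 8 in both, and in mTeSR from its first sampled day, day 4, to day 8. The naive libraries had 1.77 and 1.31 CPM (8 and 6 counts) on serum coating, 0.224 and 0.180 CPM (1 count each) on Geltrex in experiment 1 and 0.683 and 0.277 CPM (2 and 1 counts) in experiment 2. Over all 38 libraries the level ran from 0.180 to 192 CPM. It was the widest range of the 8 genes, in CPM fold, among those with a count in every library.

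In N2B27, CDH2 had 1.40 and 1.19 CPM on day 2, 3.44 and 1.80 CPM on day 3, and 6.76 and 4.48 CPM on day 4 of experiment 1. It then reached 43.6 and 48.0 CPM on day 6 and 192 and 146 CPM on day 8. Day 2 lay within the naive range, and from day 3 on no library overlapped with naive cells. In E8 the values were 1.06 and 1.64, 2.64 and 2.89, 7.10 and 8.48, 51 and 57.8, and 114 and 131 CPM on days 2, 3, 4, 6 and 8. In mTeSR they were 10.4 and 11.3, 46.0 and 50.4, and 124 and 112 CPM on days 4, 6 and 8. Within each medium every sampled day lay above the day before it without overlap.

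Against the 6 naive libraries, CDH2 at day 8 was 220-fold higher in N2B27 (log2 fold change 7.78, SE 0.28, adjusted p = 1.13e-21), and by counts 109 times the naive cells on serum coating and 835 times those on Geltrex in experiment 1. It was 159-fold higher in E8 (7.31, SE 0.29) and 153-fold higher in mTeSR (7.26, SE 0.29). At day 4 the log2 fold changes were 3.57 (SE 0.36) in N2B27, 3.35 (SE 0.43) in E8 and 3.82 (SE 0.41) in mTeSR. At day 2 they were 0.79 in N2B27 and 0.85 in E8, with an adjusted p of 0.382 in both, and these 2 comparisons of CDH2 with naive cells were the ones not called out of 15.

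The start of the CDH2 rise depended on which naive cells it was set against. Over both libraries, N2B27 at day 2 had 12 counts, naive cells on serum coating 14 and naive cells on Geltrex in experiment 1 had 2. The ratio of day 2 to serum coating was 0.847 (95% exact counting interval 0.358 to 1.97) and to Geltrex 6.51 (1.45 to 59.9). Day 3 to serum coating was 1.65 (0.814 to 3.47), day 4 was 3.66 (2.03 to 7.08) and day 8 was 109 (64.5 to 199). To Geltrex, the coating of the later days, the ratios were 12.7 (3.14 to 111), 28.2 (7.49 to 238) and 835 (231 to 6901). The day 3 calls, at 1.75 in N2B27 (adjusted p = 0.0176) and 1.86 in E8 (adjusted p = 0.00896), were lost with naive cells on serum coating only, at 0.72 (adjusted p = 0.26) and 0.84 (adjusted p = 0.16). They were also lost without the first N2B27 library of day 3 (1.25, adjusted p = 0.30) and without the second E8 library of day 3 (1.79, adjusted p = 0.07). Intervals of count ratios cover counting error only, since no molecular identifiers are stated to have been counted.

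Steps between sampled days were 1 day long up to day 4 and 2 days long after it, so their sizes are not rates. In N2B27 it rose 8.09-fold from day 4 to day 6 (log2 3.02, SE 0.20, adjusted p = 4.79e-12) and 3.69-fold from day 6 to day 8 (1.88, SE 0.15, adjusted p = 7.11e-10). E8 gave 6.95-fold (2.80, SE 0.19) and then 2.24-fold (1.17, SE 0.15), and mTeSR 4.45-fold (2.15, SE 0.19) and then 2.44-fold (1.29, SE 0.15). All 6 of these steps were called, and that of E8 from day 6 to day 8 was lost with the compared libraries fitted alone (1.18, adjusted p = 0.066). The steps from day 3 to day 4 were called at 1.14 in N2B27 (adjusted p = 0.0443) and 1.48 in E8 (adjusted p = 0.0048), and with the compared libraries fitted alone at neither (adjusted p = 0.34 and 0.31). In N2B27 that call was lost without any 1 of the 4 libraries compared, with log2 fold changes of 0.71 to 1.65. In E8 it was lost without the first library of day 3 (1.45, adjusted p = 0.065) or the second of day 4 (1.35, adjusted p = 0.086).

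**Figure D1:**
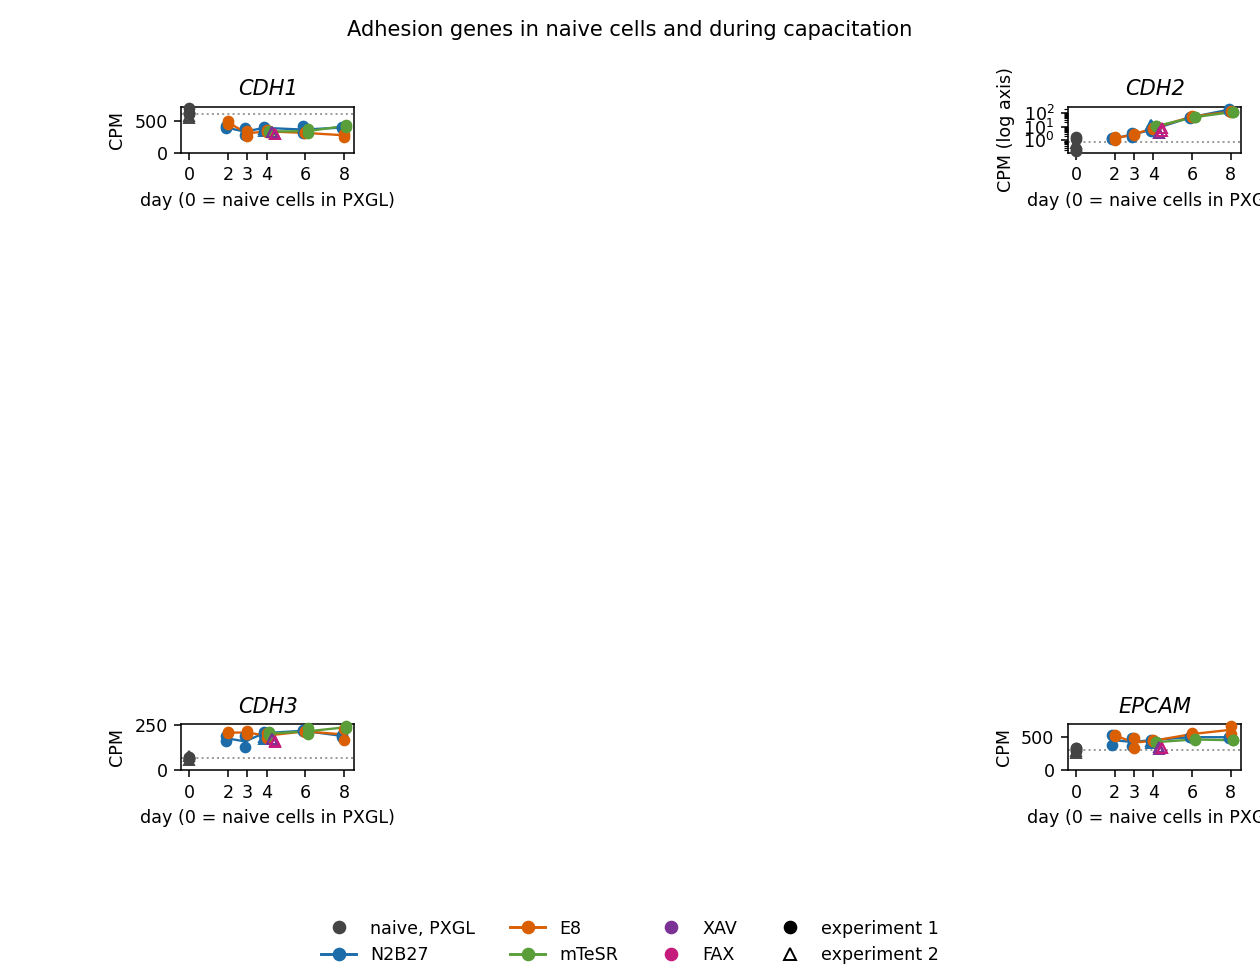
Level in CPM of CDH1, CDH2 (log axis), CDH3 and EPCAM by day, 1 point per library, with filled circles for experiment 1, open triangles for experiment 2, lines through the means of experiment 1 for N2B27, E8 and mTeSR, and a dotted line at the naive mean. CDH1 lies under all naive libraries from day 2 on, CDH2 climbs to between 112 and 192 CPM at day 8, and CDH3 lies above all naive libraries from day 2 on, as does EPCAM except for 3 of the 4 libraries with XAV or FAX.

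The balance of the 2 cadherins can be read within a library, where it needs no scaling between libraries. Naive libraries had 0.292 to 2.93 CDH2 counts for each 1000 counts of CDH1, a mean of 1.21 ± 1.05 (SD, n = 6). In N2B27 the mean was 3.29 on day 2, 8.62 on day 3, 26.3 ± 13.8 on day 4 (n = 4), 131 on day 6 and 436 on day 8. In E8 the same days gave 2.85, 9.28, 23.5, 178 and 454, and in mTeSR days 4, 6 and 8 gave 33.0, 145 and 282. At day 8 the 2 libraries of N2B27 had 367 and 506, so that CDH1 counts still outnumbered CDH2 counts in each. These are ratios of tag counts and not of protein, and the 3′ ends of the 2 transcripts may be captured unequally.

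Most of that shift came from CDH2. From naive cells to day 8 in N2B27 CDH1 changed by -0.63 in log2 and CDH2 by 7.78, and in E8 by -1.16 and 7.31. The ratio was tested in N2B27 at day 4, the one condition beside naive cells that both experiments held. Its mean log2 was higher by 4.42 in the 4 libraries than in the 6 naive ones, with 4 of 4 above all naive libraries. An exact permutation test within experiment, two-sided, gave p = 0.0111, the smallest that its 90 arrangements allow.

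CDH3, P-cadherin, a classical cadherin of basal epithelia and placenta, did not follow its neighbour CDH1 but rose. The naive libraries had 64.9 and 60.7 CPM on serum coating, 72.5 and 64.4 CPM on Geltrex in experiment 1 and 54.3 and 78.6 CPM in experiment 2. The other 32 libraries had 129 to 245 CPM with a median of 197 CPM, above every naive library. The rise was in place at day 2, with 164 and 190 CPM in N2B27 and 210 and 207 CPM in E8, which was 1.42 in log2 above naive for N2B27 (SE 0.12, adjusted p = 3.49e-11) and 1.66 for E8 (SE 0.12, adjusted p = 7.82e-13). No later step between sampled days passed the p threshold in any medium. All 15 comparisons of CDH3 with naive cells were called, from 1.26 in FAX at day 4 to 1.85 in mTeSR at day 8. The call in N2B27 at day 3, where the libraries had 129 and 190 CPM, was lost without the second of them (0.97).

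EPCAM, an epithelial adhesion molecule used as a surface marker of pluripotent cells, was also higher outside naive cells. It had 292 and 305 CPM on serum coating, 329 and 338 CPM on Geltrex in experiment 1 and 290 and 255 CPM in experiment 2. N2B27 had 378 and 530 CPM on day 2 and 499 and 489 CPM on day 8, E8 had 531 and 515 and then 669 and 544 CPM, and mTeSR at day 8 had 451 and 445 CPM. No library of N2B27, E8 or mTeSR overlapped with naive cells, though the second of E8 at day 3, at 338 CPM, equalled the highest naive library to 3 digits. Log2 fold changes over those 13 groups ran from 0.45 in E8 at day 3 to 1.01 in E8 at day 8 (SE 0.12 for both), all past the p threshold. The last was the only one called (adjusted p = 8.09e-09), and it fell to 1.00 or under without any 1 of 4 libraries: the first naive library on serum coating (1.00), the 2 naive libraries of experiment 2 (1.00 and 0.98) or the first E8 library of day 8 (0.85). With XAV and FAX the levels were 316 and 353 and 332 and 330 CPM, and the log2 fold changes against naive were 0.15 (adjusted p = 0.374) and 0.13 (adjusted p = 0.434).

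**Figure D2:**
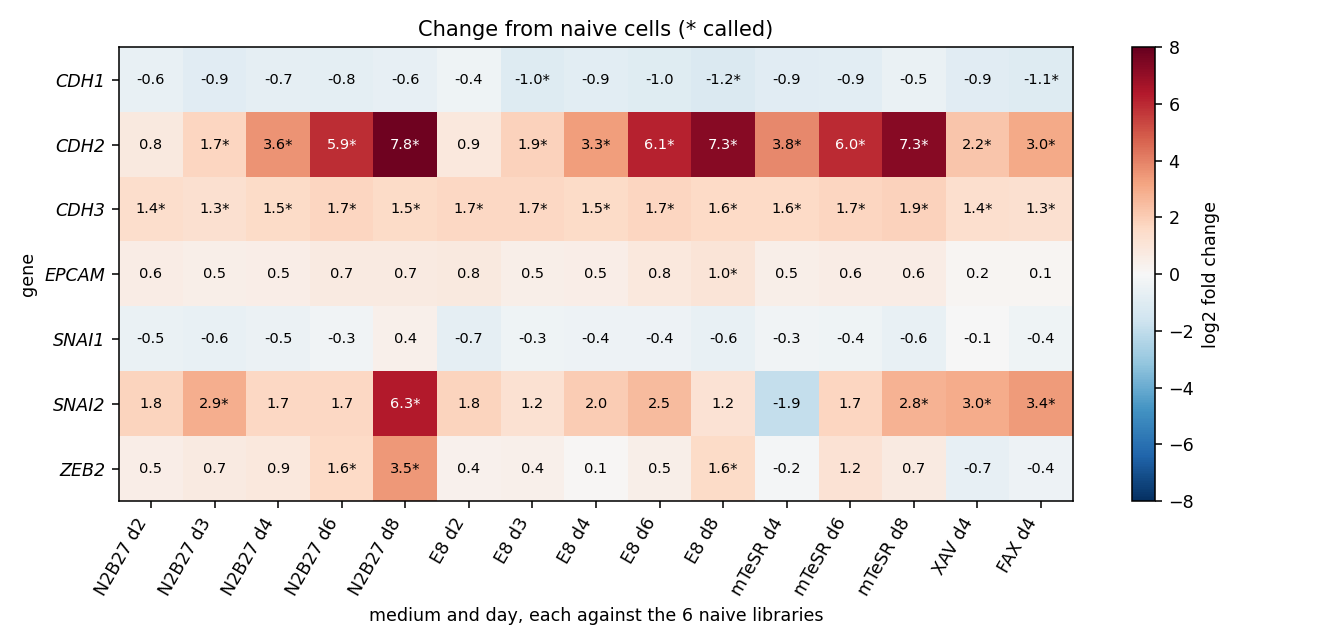
Log2 fold change against the 6 naive libraries for the 7 tested genes (rows) in 15 groups of medium and day (columns), with colour for size and direction and an asterisk where the change was called. The CDH3 row carries an asterisk in all 15 columns, the CDH2 row in 13, and the CDH1 row in 3, those of E8 at days 3 and 8 and FAX.

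Of the regulators, SNAI1, a Snail repressor that mouse embryos need for gastrulation, was expressed in naive cells and changed little. The naive libraries had 20.1 and 22.7 CPM on serum coating, 17.5 and 19.7 CPM on Geltrex in experiment 1 and 15 and 19.6 CPM in experiment 2. N2B27 had 17 and 9.02 CPM on day 2, 9.6 and 16 on day 3, 13.5 and 13.3 on day 4, 16 and 15.9 on day 6 and 27.5 and 23.3 on day 8. Only the last pair lay above all naive libraries. Its log2 fold change against naive was 0.40 (SE 0.20, adjusted p = 0.102).

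SNAI1 was lower than in naive cells, past the p threshold though short of the fold threshold, in 5 of the 15 groups. These were N2B27 at day 3 (-0.57, adjusted p = 0.0466) and day 4 (-0.45, adjusted p = 0.0315), E8 at day 2 (-0.69, adjusted p = 0.0189) and day 8 (-0.59, adjusted p = 0.0255), and mTeSR at day 8 (-0.61, adjusted p = 0.0294). E8 at day 8 had 12.7 CPM in both libraries and mTeSR had 11.1 and 14.0 CPM, all under the lowest naive library. SNAI1 in N2B27 at day 3 was called as lower without its second library (adjusted p = 0.014).

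SNAI2, called Slug, the Snail paralogue of neural crest and mesoderm, was nearly absent except in N2B27 at day 8. The gene lies at chr8:48917598-48921740 on the minus strand. The 6 naive libraries together held 2 counts. N2B27 had 0 and 3 counts on day 2, 4 and 3 on day 3, 1 and 2 on day 4 of experiment 1 and 1 and 2 on day 6, and then 43 and 41 on day 8, which is 9.47 and 7.41 CPM. In the other 36 libraries the highest count was 5. E8 had 1 and 1 and mTeSR 1 and 4 counts on day 8. SNAI2 and ZEB2 passed the filter on low counts through the libraries of N2B27 at day 8 alone, so a gene with their pattern had to be high there to be tested at all. Their p-values and calls that involve that group are therefore given with those of a fit with no filter, over every gene with a count. That fit uses the same counts of the same genes, so its p-values, though often smaller, are not independent evidence.

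The count ratio of N2B27 at day 8 to the naive libraries was 107 (95% exact counting interval 28.7 to 897) and the adjusted p was 2.33e-09 (3.35e-21 with no filter). To N2B27 at day 6 it was 27.1 (8.97 to 134, adjusted p = 0.000608, and 6.37e-08 with no filter). Smaller counts of SNAI2 were called against naive cells in N2B27 at day 3 (ratio 9.91, 1.89 to 97.7, adjusted p = 0.0299) and in mTeSR at day 8 (8.83, 1.45 to 92.8, adjusted p = 0.0463). The same was so with XAV (10.3, 2.05 to 99.2, adjusted p = 0.0226) and FAX (14.2, 2.93 to 135, adjusted p = 0.00724). These 4 rest on 5 to 9 counts in each group. Each was lost without 1 of its own libraries: the first or second of N2B27 at day 3 (adjusted p = 0.21 and 0.056), the second of mTeSR at day 8 (0.57), the first of XAV (0.19) and the first of FAX (0.071). N2B27 at day 3 was also lost without the second naive library on serum coating or the second on Geltrex in experiment 1, and mTeSR at day 8 without any 1 of 4 naive libraries.

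ZEB1 was at the floor: 32 counts in all 38 libraries, at most 5 in a library, and some count in 19 of them. N2B27 at day 8 had 4 and 2 counts and the 6 naive libraries had 1 count in all. It did not pass the filter on low counts, so no test was made. The counting is not stated to have used strand, and the antisense gene ZEB1-AS1 had 49 counts in all.

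ZEB2, known in neural and neural crest development, rose in N2B27 at day 8 as SNAI2 did. The naive libraries had 5 and 7 counts on serum coating, 4 and 1 on Geltrex in experiment 1 and 0 and 0 in experiment 2. N2B27 had 6 and 3, 5 and 5, 6 and 1, 10 and 10, and 39 and 36 counts on days 2, 3, 4 (experiment 1), 6 and 8, and the day 8 counts are 8.59 and 6.50 CPM. E8 stayed between 2 and 6 counts up to day 6 and had 10 and 9 on day 8, and mTeSR between 1 and 7 throughout. Its antisense gene ZEB2-AS1 had 6 counts in all libraries, and MIR200CHG, the host gene of microRNAs that repress ZEB1 and ZEB2, had 95.

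N2B27 at day 8 was 11-fold higher in ZEB2 than naive cells (log2 3.46, SE 0.52, adjusted p = 1.35e-06, and 1.18e-12 with no filter). The rise from day 6 was 3.63-fold (1.86, SE 0.48, adjusted p = 0.0239, and 0.0123 with no filter). That step was lost without any 1 of the 4 libraries compared, with log2 fold changes of 1.65 to 2.05. The calls against naive in N2B27 at day 6 (1.60, SE 0.64, adjusted p = 0.0408) and in E8 at day 8 (1.56, SE 0.65, adjusted p = 0.0446) were each lost without either of their own 2 libraries. They were lost as well without the second naive library on Geltrex in experiment 1 or either of the naive libraries of experiment 2. With naive cells on serum coating only, they were 0.63 (adjusted p = 0.42) and 0.58 (adjusted p = 0.44).

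**Figure D3:**
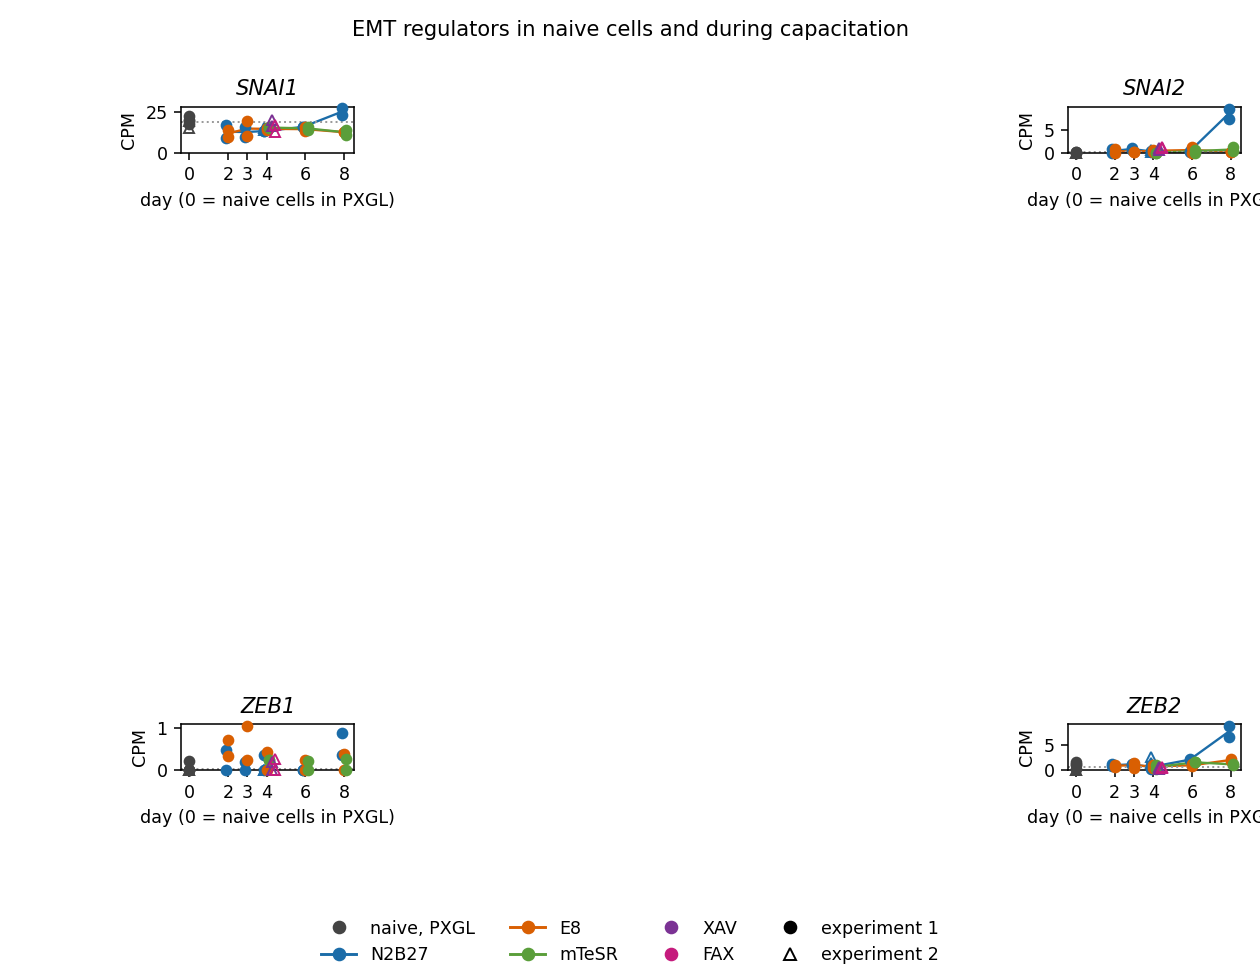
Level in CPM of SNAI1, SNAI2, ZEB1 and ZEB2 by day, drawn as for the adhesion genes, with no lines for ZEB1. SNAI2 and ZEB2 leave the bottom of the axis in N2B27 at day 8, at 7.41 to 9.47 CPM and 6.50 to 8.59 CPM, while SNAI1 lies between 9.02 and 27.5 CPM throughout.

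Against naive cells, 1, 3, 2, 3 and 4 of the 7 tested genes were called in N2B27 on days 2, 3, 4, 6 and 8. The share of all genes called in those comparisons was 16.2%, 15.6%, 18.4%, 23.1% and 23.9%. In E8 the numbers were 1, 3, 2, 2 and 5 of 7, beside 24.6%, 17.8%, 20.8%, 23.3% and 27.5% of all genes. In mTeSR on days 4, 6 and 8 they were 2, 2 and 3, beside 19.8%, 22.5% and 25.1%. With XAV 3 and with FAX 4 of 7 were called, beside 17% and 17.1%. At day 2 the 1 of 7 was no larger a share than over all genes. The 7 genes include SNAI2 and ZEB2, which were tested because of N2B27 at day 8, so the counts that involve that group are a description. The 40 calls in these 15 comparisons share the 6 naive libraries, and 28 of them are of CDH2 and CDH3.

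From one sampled day to the next, 0, 1, 1 and 3 of 7 genes were called in N2B27, beside 3.18%, 1.09%, 3.89% and 1.43% of all genes for the steps from day 2 to 3, 3 to 4, 4 to 6 and 6 to 8. In E8 they were 0, 1, 1 and 1, beside 7.56%, 0.81%, 2.51% and 0.804%. In mTeSR they were 1 and 1, beside 2.91% and 0.978%. Of these 10 calls 8 were CDH2, and the others were SNAI2 and ZEB2 between days 6 and 8 in N2B27. The last pair was tested because of its level at day 8, so the number of calls in that step is not set against the others.

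Among N2B27, E8 and mTeSR, none of the 7 genes was called between media before day 8. At day 8 the regulators SNAI1, SNAI2 and ZEB2 differed. SNAI2 and ZEB2 were tested only because of their level in N2B27 at that day, so the day 8 counts against N2B27 are a description. E8 against N2B27 gave 0, 0, 0, 0 and 2 of 7 called on days 2, 3, 4, 6 and 8, beside 4.55%, 1.68%, 2.49%, 5.28% and 7.29% of all genes. mTeSR against N2B27 gave 0, 0 and 3 on days 4, 6 and 8, beside 1.58%, 2.62% and 3.8%. mTeSR against E8 gave none on any of the 3 days, beside 0.084%, 1.1% and 5.31%. In the 14 comparisons of days, media, supplements, coating or experiment with no call by edgeR's quasi-likelihood test, DESeq2 made 0 calls. In single comparisons of these, 937 (FAX against XAV) to 5671 (E8 from day 2 to day 3) of all 16674 genes had an unadjusted p under 0.05. Of the 7 genes, 10 values had one, at most 2 in a comparison. Among them was CDH2 at day 4, which was higher in mTeSR than in N2B27 by 0.94 (SE 0.24, adjusted p = 0.0198) and was called without the first N2B27 library of that day (1.27, adjusted p = 0.025).

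SNAI2 at day 8 was lower in E8 and in mTeSR than in N2B27. It and ZEB2 passed the filter on low counts through that N2B27 group alone, so their calls here are a description. The count ratio of N2B27 to E8 was 40.0 (95% exact counting interval 10.7 to 335, adjusted p = 7.83e-05) and of N2B27 to mTeSR 12.1 (4.98 to 38.2, adjusted p = 0.00206). With no filter these were 3.27e-09 and 1.8e-05. The call against mTeSR was lost without its first library (adjusted p = 0.06). ZEB2 at day 8 was lower by -1.90 in log2 in E8 (95% interval -2.90 to -0.91, adjusted p = 0.00568) and by -2.74 in mTeSR (-3.89 to -1.59, adjusted p = 0.00132), with 0.00295 and 0.000155 with no filter. The ZEB2 call in E8 was lost without the first N2B27 library (-1.70, adjusted p = 0.063) or the first E8 library (-1.81, adjusted p = 0.065). SNAI1 at day 8 was lower by -0.99 in E8 (-1.49 to -0.49, adjusted p = 0.00418) and by -1.01 in mTeSR (-1.54 to -0.49, adjusted p = 0.00818), so 1 of 2 changes of nearly the same size passed the fold threshold. The first was called without the second N2B27 library (-1.11). The second was lost without the first N2B27 library (-0.89, adjusted p = 0.082) or the first mTeSR library (-0.86, adjusted p = 0.11).

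The cadherins and EPCAM differed less between media at day 8. CDH2 was lower than in N2B27 by -0.47 in E8 (-0.76 to -0.18, adjusted p = 0.0175) and by -0.52 in mTeSR (-0.81 to -0.23, adjusted p = 0.0141), with no overlap of libraries. CDH1 was lower than in N2B27 by -0.53 in E8 (-0.80 to -0.26, adjusted p = 0.00423), while for mTeSR the difference was 0.10 (-0.16 to 0.37, adjusted p = 0.691). Between mTeSR and E8, CDH1 was higher by 0.63 (0.36 to 0.90, adjusted p = 0.00129) and EPCAM lower by -0.44 (-0.72 to -0.15, adjusted p = 0.0309). CDH3 differed by 0.05 in E8 (-0.24 to 0.35, adjusted p = 0.847) and by 0.33 in mTeSR (0.03 to 0.62, adjusted p = 0.158). None of these was called. Of the 3 media at day 8, N2B27 held the most CDH2, SNAI1, SNAI2 and ZEB2, and E8 the least CDH1.

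**Figure D4:**
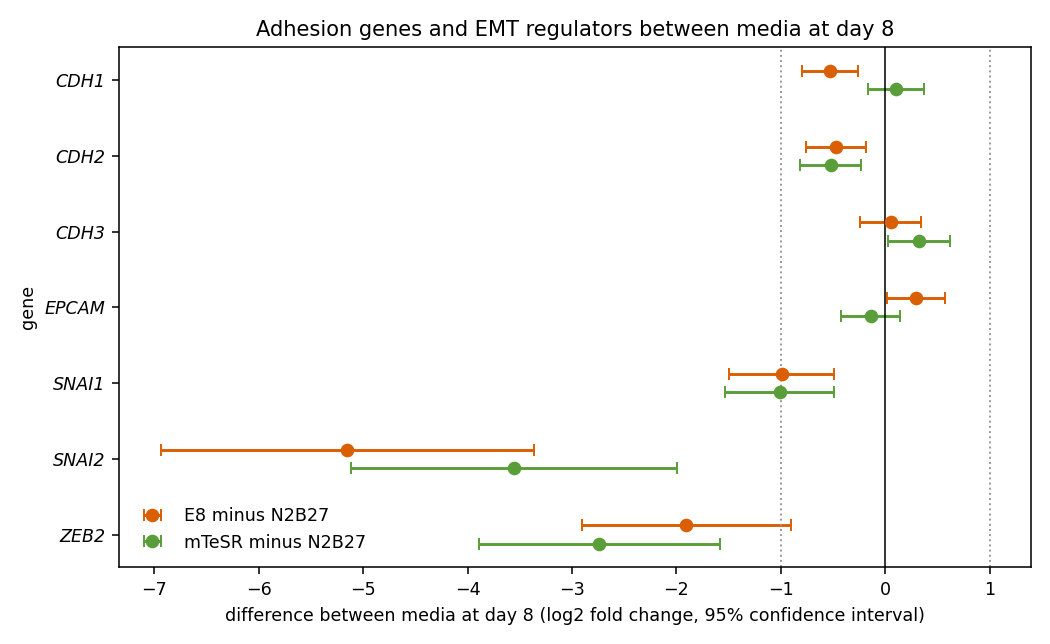
Log2 fold change at day 8 for E8 minus N2B27 and mTeSR minus N2B27, 1 point per gene and medium, with bars for the 95% interval. SNAI1, SNAI2 and ZEB2 lie under 0 in both media, SNAI2 farthest, and the bars of CDH3 in E8 and of CDH1 and EPCAM in mTeSR span 0.

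Genes of other cell types also differed between the media at day 8. The 5 endoderm markers SOX17, FOXA2, GATA4, GATA6 and PDGFRA summed to 0.683 to 4.21 CPM in naive libraries, 152 to 171 CPM in N2B27 at day 8, 18.1 to 22.7 CPM in E8 and 82.3 to 85.2 CPM in mTeSR. The 6 markers of primitive streak and mesoderm (TBXT, MIXL1, EOMES, MESP1, TBX6 and GSC) summed to 4.10 to 22.0 CPM in naive libraries, 229 to 304 CPM in N2B27 at day 8, 37.5 to 39.8 CPM in E8 and 152 to 200 CPM in mTeSR. At day 8, 5 of 5 tested endoderm and 4 of 4 tested streak markers were called lower in E8 than in N2B27. In mTeSR all 9 means were under those in N2B27, and 2 of 5 and 0 of 4 were called. Of all genes 3.96% were called lower in E8 and 2.15% in mTeSR. TBXT (-0.83, adjusted p = 0.00692), EOMES (-0.83, adjusted p = 0.0181) and SOX17 (-0.77, adjusted p = 0.0178) passed the p threshold there but not the fold threshold. MESP1 was at 0 in E8. The 3 general pluripotency genes summed to 1286 to 1307 CPM in N2B27, 1434 to 1826 CPM in E8 and 1791 to 1863 CPM in mTeSR. None of them was called in E8 or mTeSR against N2B27, though SOX2 was higher by 0.65 (adjusted p = 0.000111) and 0.77 (adjusted p = 2.6e-05). Of the naive markers, KLF4 was called higher than in N2B27 in E8 (2.13), and SUSD2 lower in E8 (-1.64) and mTeSR (-1.13). Of 4 tested trophectoderm markers, GATA3, CDX2 and GATA2 were called lower in both media. GATA3 had means of 36.7 CPM in N2B27, 12.6 CPM in E8 and 5.1 CPM in mTeSR, CDX2 17, 0.0937 and 2.62 CPM, and GATA2 6.35, 1.92 and 2.06 CPM. The fourth, TFAP2C, had 313, 398 and 429 CPM and was called in neither, though in mTeSR it was higher by 0.46 with an adjusted p of 0.0324. With KRT7, at 0 in mTeSR, these summed to 338 to 408, 401 to 425 and 414 to 465 CPM, against 327 to 478 CPM in naive libraries. The 5 amnion markers summed to 12.5 to 17.8, 15.9 to 16.5 and 8.67 to 11.7 CPM, against 5.53 to 11.8 CPM in naive libraries. Of 4 tested amnion markers, IGFBP3 was called higher in E8 than in N2B27 (2.00) and ISL1 (-1.77) and TFAP2A (-2.13) lower, and none was called in mTeSR. NES, a filament gene of neural progenitors, had 172 CPM in N2B27, 304 CPM in E8, the highest of the 3 media, and 178 CPM in mTeSR, against 45.1 CPM in naive cells. It was higher in E8 than in N2B27 by 0.82 (adjusted p = 1.93e-05), short of the fold threshold. PAX6, a neural transcription factor, had 1.98, 1.85 and 2.07 CPM against 0.57 CPM in naive cells, DLK1 20.6, 23.8 and 38.7 CPM against 13.8 CPM, and SOX1 0.11, 0.447 and 0 CPM against 0.325 CPM. The sum of 7 neural crest markers (SOX10, FOXD3, TFAP2B, PAX3, PAX7, NGFR and ETS1) was 88.3 to 96.8 CPM in N2B27, 105 to 116 CPM in E8 and 89.0 to 99.6 CPM in mTeSR, against 26.3 to 64.2 CPM in naive libraries, and PAX7 was at 0 in mTeSR. FOXD3 was called higher in E8 than in N2B27 (1.10, adjusted p = 9.06e-05), the only one of 5 tested. The 8 fibroblast markers, a list that shares genes with the mesenchymal list, summed to 8.02 to 10.2 CPM in naive libraries, 178 to 184 CPM in N2B27, 109 to 113 CPM in E8 and 145 to 160 CPM in mTeSR, with DCN at 0 in N2B27, COL3A1 and PRRX1 at 0 in E8 and LUM and DCN at 0 in mTeSR. COL1A2 made up most of each day 8 fibroblast sum, with means of 140 CPM in N2B27, 64.6 CPM in E8 and 121 CPM in mTeSR. COL1A1 had 22.6, 36.4 and 18.8 CPM, and was higher in E8 than in N2B27 by 0.68 (adjusted p = 0.00358), short of the fold threshold. CDH2 stood at 114 and 131 CPM in E8, where the endoderm and streak sums were lowest of the 3 media and NES was highest. The part of such cells in the SNAI1, SNAI2, ZEB2 and CDH2 levels was not tested.

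Whether the course from day 2 to day 8 differed between E8 and N2B27 was tested as the interaction of medium with day, 4 terms at once, and called on the adjusted p alone. It was called for 2 of 7 genes, SNAI2 (adjusted p = 0.0304) and CDH1 (adjusted p = 0.0453), beside 11% of all genes. SNAI2 was in the test because of N2B27 at day 8, so the count of 2 is a description, and with no filter the adjusted p was 0.00059 for SNAI2 and 0.00849 for CDH1. With the compared libraries fitted alone neither was called, at 0.0704 for SNAI2 and 0.17 for CDH1, and with plain library totals CDH1 was not called (0.0773). CDH2 had an adjusted p of 0.0603, SNAI1 0.0895, ZEB2 0.351, CDH3 0.355 and EPCAM 0.583. CDH1 in E8 was above N2B27 at day 2 by 0.26 and under it at day 8 by -0.53. Leaving out 1 library at a time moved CDH1 above the threshold in 12 cases (adjusted p = 0.0521 to 0.125) and SNAI2 in 6 (0.053 to 0.106). It brought CDH2 under it in 7 cases (0.0287 to 0.0497), SNAI1 in 4 (0.0163 to 0.0373) and CDH3 in 1, without the second N2B27 library of day 3 (0.0431).

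In experiment 2, CDH2 at day 4 was lower with XAV and with FAX than in N2B27 alone. N2B27 had 13.5 and 13.1 CPM, XAV 3.62 and 3.58 CPM and FAX 4.59 and 7.81 CPM, against 0.683 and 0.277 CPM in the naive cells of that experiment. The 3 groups did not overlap. XAV was 3.67-fold lower than N2B27 (log2 -1.88, 95% interval -2.42 to -1.34, adjusted p = 4.08e-05) and FAX 2.13-fold lower (-1.09, -1.60 to -0.58, adjusted p = 0.0213). FAX was above XAV by 0.79 (0.17 to 1.41, adjusted p = 0.849). CDH2 was the only gene of the 7 called in each of those 2 comparisons, beside 0.57% of all genes with XAV and 0.336% with FAX, and none was called between FAX and XAV, beside 0.012%. The call for FAX was lost without either N2B27 library (-1.06, adjusted p = 0.16, and -1.11, adjusted p = 0.17) or the first FAX library (-0.77, adjusted p = 0.42), while that for XAV held without each of its libraries.

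The other genes were closer together under XAV and FAX. CDH1 had 339 and 365 CPM in N2B27, 317 and 324 CPM with XAV and 287 and 296 CPM with FAX, with log2 differences of -0.14 (-0.40 to 0.13, adjusted p = 0.849) and -0.27 (-0.54 to -0.00, adjusted p = 0.557). ZEB2 had 10 and 6 counts in N2B27, 1 and 3 with XAV and 2 and 2 with FAX (-2.24, adjusted p = 0.195, and -1.97, adjusted p = 0.362). CDH2 per 1000 CDH1 counts was 11.3 with XAV and 21.2 with FAX. The streak and mesoderm sum was 33.6 to 33.7 CPM with XAV and 49.9 to 54.2 CPM with FAX against 31.8 to 42.6 CPM in N2B27, and the endoderm sum 5.43 to 7.57 and 6.11 to 6.39 against 5.47 to 6.77 CPM. Other lists were lower than in N2B27 without overlap, as CDH2 was. The 8 fibroblast markers summed to 91.5 to 92.8 CPM in N2B27, 62.6 to 71.3 CPM with XAV and 64.6 to 75.7 CPM with FAX, and the 18 mesenchymal genes to 847 to 862, 654 to 689 and 652 to 673 CPM. NES had 211 CPM in N2B27, 119 CPM with XAV (-0.83, adjusted p = 0.00023) and 141 CPM with FAX (-0.58, adjusted p = 0.0199), not called in either. PAX6 had 9.84, 6.21 and 13.1 CPM and DLK1 44.3, 50.7 and 37.6 CPM. The 20 genes of epithelial identity summed to 655 to 665, 628 to 629 and 561 to 578 CPM, while the 10 naive markers summed to 1123 to 1149, 1185 to 1231 and 1149 to 1176 CPM. The 3 general pluripotency genes were higher than in N2B27 without overlap, at 2003 to 2025, 2190 to 2207 and 2088 to 2091 CPM. The part of such cells in the CDH2 level was not tested. FAX against naive cells was called for CDH1 at -1.05, but not against the naive libraries of experiment 2 alone (-0.92).

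Experiments and coatings differed for CDH2 as well. N2B27 at day 4 had 6.76 and 4.48 CPM in experiment 1 and 13.5 and 13.1 CPM in experiment 2, a 2.36-fold difference (log2 1.24, 0.75 to 1.72, adjusted p = 0.00195). It was called for 1 of 7 genes beside 1.01% of all genes, and it was lost without the second library of experiment 1 (0.97, adjusted p = 0.09). Both XAV libraries of experiment 2 lay under N2B27 of experiment 1, and the FAX libraries lay around it. Marker lists also differed without overlap between the 2 experiments at that day. The streak and mesoderm sum was 62.9 to 63.4 CPM in experiment 1 and 31.8 to 42.6 CPM in experiment 2, and the fibroblast sum 103 to 108 and 91.5 to 92.8 CPM. Higher in experiment 2 were the sums of mesenchymal genes (750 to 758 and 847 to 862 CPM), epithelial identity (604 to 626 and 655 to 665 CPM), general pluripotency (1773 to 1832 and 2003 to 2025 CPM), trophectoderm (402 to 409 and 489 to 505 CPM), amnion (9.5 to 11.6 and 13.3 to 14.7 CPM) and naive markers (1085 to 1090 and 1123 to 1149 CPM). Their part in the CDH2 difference was not tested. Naive cells on Geltrex had less CDH2 than on serum coating, with 2 counts against 14, a ratio of serum coating to Geltrex of 7.69 (1.77 to 69.7, adjusted p = 0.0817). No gene of the 7 was called by coating, beside 0.048% of all genes, or between the naive cells of the 2 experiments on Geltrex, beside 4.67%. Each experiment was run once, so what differed between them at day 4 cannot be told apart.

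**Figure D5:**
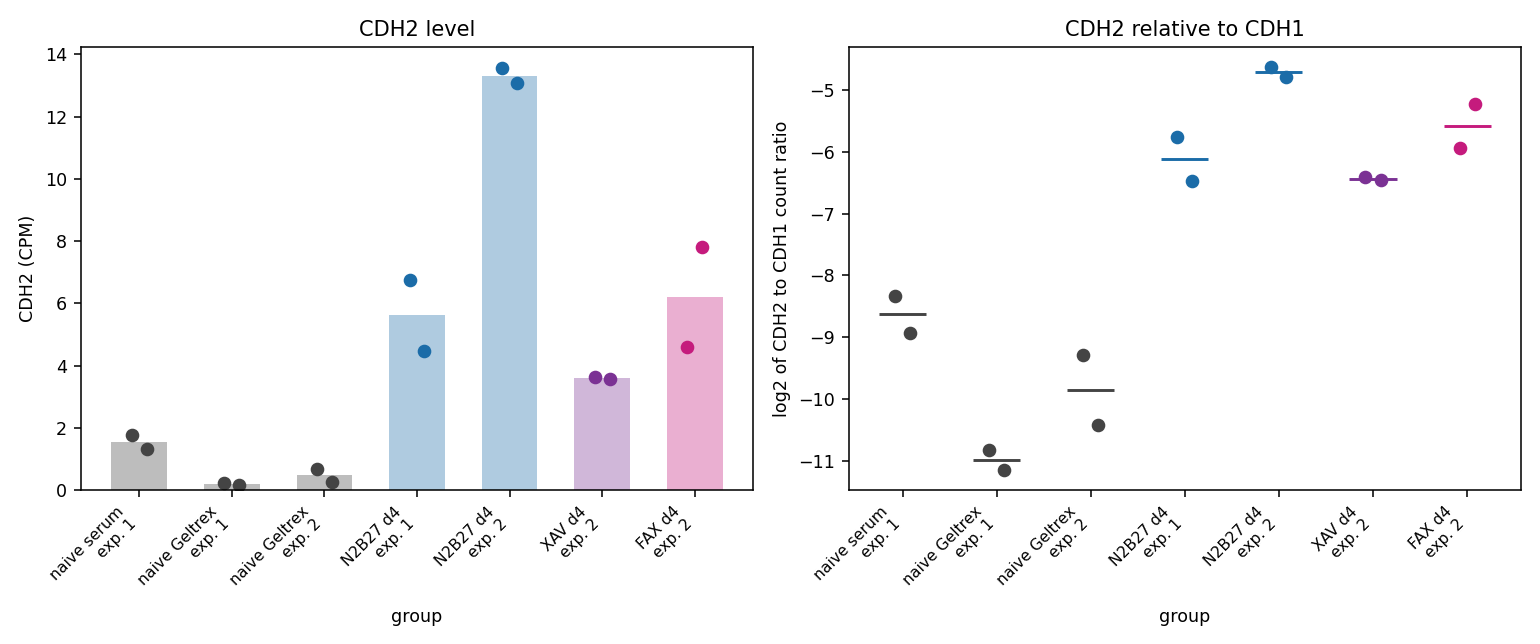
CDH2 level in CPM (bars for means from 0, points for libraries) and log2 of the CDH2 to CDH1 count ratio in naive cells and at day 4, by experiment. XAV (3.62 and 3.58 CPM) and FAX (4.59 and 7.81 CPM) lie under N2B27 of the same experiment (13.5 and 13.1 CPM), while N2B27 of experiment 1 (6.76 and 4.48 CPM) lies near FAX.

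Other genes of the same functions gave the context at day 8 against naive cells, where 23.9% of all genes were called in N2B27. Of 19 other classical and atypical cadherins 7 were tested, of which 4 rose and 2 fell in N2B27. CDH13, a cadherin anchored by lipid, went from 0.911 to 47.2 CPM (5.62), CDH11, a mesenchymal cadherin, from 2.00 to 55.8 CPM (4.74), and CDH26 rose by 3.65. CDH5, the cadherin of endothelium, fell by 3.45 and CDH8 by 1.06. Between media at day 8, CDH11 was called lower than in N2B27 in both E8 (-1.34) and mTeSR (-1.58). In E8, CDH4 was also called lower (-1.19) and CDH6 higher, at 2.47 CPM against 0.361 CPM in N2B27.

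Of 15 tested partners of cadherins at the junction 7 rose and none fell, led by NECTIN3, an adhesion molecule of the adherens junction (4.57), and by the neural catenins CTNNA2 (3.30) and CTNND2 (2.61). CTNNB1, which binds cadherin tails, went from 184 to 314 CPM (0.77) and was not called. Of 9 desmosome genes 2 rose, DSC3 (3.26) and PKP4 (1.16), and 1 fell, DSG3 by 1.76.

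Of 19 tested genes of epithelial identity 4 rose and 4 fell. Grainyhead factor GRHL3 rose by 2.75, MAL2, a protein of apical transport, by 2.45 and the membrane protease ST14 by 1.28. ELF3 fell by 4.35, from 78.8 to 3.80 CPM, GRHL1 by 2.60 and OVOL2, a repressor of ZEB1, by 2.24. The list had a median of -0.37 beside -0.03 over all genes.

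Of 16 tested mesenchymal genes 13 rose in N2B27 and 12 in both E8 and mTeSR, and 1 fell in E8, with medians of 3.86, 2.91 and 2.83 beside -0.03, 0.00 and -0.02 over all genes. VIM, the filament protein vimentin, went from 0.0902 CPM in naive cells to 83.6 CPM, THY1 from 0.0743 to 61.7 CPM and COL1A2, a collagen chain, from 0.927 to 140 CPM. At day 8, 7 of 16 were called lower in E8 than in N2B27, beside 3.96% of all genes, and 3 of 16 in mTeSR, beside 2.15%. Of 12 other transcription factors linked to the transition 7 rose in N2B27, with FOXQ1 at 44.2 CPM against 0.0675 CPM, GSC at 11.1 against 0.149 CPM and FOXC2 at 35.3 against 1.23 CPM. In E8 5 rose and 2 fell. TWIST1 differed by 0.42 in N2B27 (adjusted p = 0.429).

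The genes whose mean log2 level over the 19 groups followed each gene most closely were found among 9044 tested genes with at least 20 CPM in some group, and the correlation is a description over groups that share libraries, medium and day. For CDH1 they were KLF11 (Pearson r = 0.935), TMBIM1 (0.926) and CDHR1 (0.924). For CDH2 they were COL18A1 (0.981), DTNA (0.974) and SEMA3E (0.966), and for CDH3 they were HK1 (0.983), EPHA1 (0.980) and PLEKHG3 (0.979). EPCAM had EIF4G3 (0.921), CTDSPL (0.919) and RYK (0.903). SNAI1 had lower values, with MAGI3 (0.739), SH3RF1 (0.731) and CSRNP1 (0.720). SNAI2 was followed most closely by TMEM263 (0.833), PCLAF (0.827) and MSX1 (0.790), and ZEB2 by MSX1 (0.874), GATA6 (0.824) and SGPP1 (0.824). SNAI2 and ZEB2 had low counts outside N2B27 at day 8, and how far their correlations rest on that group was not tested.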

How the data were processed

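The authors processed the 3′ tag reads (QuantSeq) of 38 libraries with the nf-core/rnaseq workflow on hg38 and deposited estimated counts per gene, whole numbers for 57133 genes, not scaled between libraries. The submitters' processing notes name FastQC 0.11.9, STAR 2.7.10a, Salmon 1.9.0 and DESeq2. Estimated counts split between similar transcripts, so very low counts of a gene with an overlapping antisense gene are uncertain.

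The deposited counts were used as they are. Genes passing edgeR's filterByExpr (16674) were fitted with TMM scaling in edgeR 4.0.16 (R 4.3.3), by the quasi-likelihood test over all 38 libraries. Comparisons with naive cells used 16 levels of medium and day (6 naive libraries and 4 of N2B27 at day 4), all others the 19 groups of 2. P-values were Benjamini-Hochberg adjusted over all tested genes, and a change was called at an adjusted p under 0.05 and a log2 fold change beyond 1. Count ratios had exact binomial 95% intervals. The CDH2 to CDH1 ratio was taken with 0.5 counts added and tested by exact permutation within experiment. The totals, 3038046 to 5612354 counts, put the floor of 3 counts at 0.520 to 1.06 CPM.

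The 8 genes and the other lists were chosen with earlier results of these data known. Of the neural marker list single genes are given, and its sum is not reported here. All 8 are named, and of the other lists the 3 largest called rises and falls in N2B27 at day 8. CTNNB1, TWIST1, the antisense and host genes and marker genes at 0 were named after their values were seen. The 3 genes most like each were ranked by Pearson correlation of group means of log2 CPM with a prior count of 2. Alternatives were RLE scaling, plain totals, other count filters, DESeq2 1.42.0, the compared libraries alone, other sets of naive libraries, experiment as a covariate, a replicate block and leaving out each library. Gene positions are from GENCODE v44 and start sites from RefSeq.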

Additional observations from a re-analysis of the deposited data

Results flagged for a closer look

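The course over days 2 to 8 in E8 against N2B27 differed, by the interaction of medium with day in edgeR's quasi-likelihood test, for CDH1 (adjusted p = 0.0453) and SNAI2 (adjusted p = 0.0304). CDH1 went from 445 and 493 CPM at day 2 to 243 and 297 CPM at day 8 in E8 and from 408 and 378 to 380 and 400 CPM in N2B27. SNAI2 had 43 and 41 counts in N2B27 at day 8 and 1 and 1 in E8, and it passed the filter on low counts through N2B27 at day 8 alone. Both adjusted p-values crossed 0.05 without single libraries, and both were over it with the compared libraries fitted alone (0.17 for CDH1 and 0.0704 for SNAI2). No library stood apart in Dixon's test of the 6 naive or the 4 N2B27 day 4 libraries, made for each of the 7 genes (14 tests).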

How the results depend on the processing

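Numbers of calls among the 7 genes are given as the number in the report and then under the alternatives. Against naive cells there were 40 calls in 15 comparisons. They were 39 with RLE scaling, 40 with plain library totals, 39 with a filter of more than 10 counts in 2 libraries, 38 with no filter, 37 with DESeq2, 35 with the compared libraries alone, 37 with experiment as a covariate, 35 with naive libraries on serum coating only and 36 to 42 without single libraries. Between days there were 10, with 7 for the compared libraries alone, 9 with no filter, 7 of 8 with DESeq2 and 9 to 10 without single libraries. Between media there were 5, with 6 for plain library totals, 2 of 3 with DESeq2 and 3 to 6 without single libraries. For XAV and FAX there were 2 (1 to 2 without single libraries), and by coating and experiment 1 (0 to 1). For the course there were 2, with 1 for plain library totals, 0 for the compared libraries alone, 3 with no filter and 0 to 5 without single libraries. DESeq2 gave no adjusted p for 53 of 301 values, 5 of them called by edgeR. Without the 2 libraries of E8 at day 2, which had low totals, a choice made after seeing the data, 37 of 39 calls against naive cells were left. The difference in log2 ratio of CDH2 to CDH1 at day 4, 4.42, was 4.15 to 4.77 without single libraries (exact permutation p = 0.0167 to 0.0333) and 4.78 with no count added. Each of these p-values was the smallest that its number of arrangements allowed.

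Same-numbered libraries did not pair: over 171 pairs their deviations correlated at -0.350 to 0.258, with 7 over 0.1. With the replicate block, calls were 39 against naive cells, 10 between days, 5 between media and 2 for the course, and the exact permutation test of the ratio gave p = 0.0278. That p is the smallest that its 36 arrangements allow. No called change turned direction under any alternative run. Changes that were not called did: with naive libraries on serum coating only, CDH2 at day 2 was -0.24 in N2B27 and -0.17 in E8, and ZEB2 was under naive cells at day 2 in N2B27 (-0.43) and at day 6 in E8 (-0.48). For SNAI2 and ZEB2 outside N2B27 at day 8, depth limits what can be seen, and ZEB1 was not tested. The cause of the moves was not tested.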
